A study of Mus musculus with 12 samples.

Results

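The genes described here are 9 mouse genes of cytokines and the IL-1 antagonist, chosen by name with earlier results of these data known. Together called cytokine genes, these are Tnf, Il1a, Il1b, Il1rn, Il6, Il10, Il18, Il12b and Osm. They are 9 of the 35944 genes with a listed transcript. Their RNA was measured by RNA-Seq of polyadenylated RNA in 12 libraries of RAW 264.7 cells, an established mouse macrophage line. For 48 h all cells had received 3 µg protein/ml of extracellular vesicles (EVs) made by the mouse endothelial line MS-1 in medium whose serum had been depleted of bovine vesicles. The EVs carried an electroporated mimic of a miRNA: a control (ctrl-EVs, cel-miR-67 of the worm in the study's methods), miR-222-3p, miR-183-5p or miR-142-5p, and the groups are called after it, as in miR-222-3p-EVs. The last 3 groups together are called miR-EVs. Each group has 3 libraries, numbered 1 to 3 in the sample titles, and cells without EVs were not analysed here. What a number stands for is not given, and no source says whether libraries of a group came from separate cultures, so the p-values measure the spread between these libraries only.

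TNF, IL-1α and IL-1β are the classical alarm cytokines of macrophages, and IL-1 activates neighbouring cells through the receptor Il1r1. The product of Il1rn, the IL-1 receptor antagonist, binds the same receptor without activating it and so limits IL-1. IL-1β and IL-18 are made as inactive precursors that caspase-1 cuts, which is why mRNA does not give the amount of active cytokine. IL-6 and oncostatin M (Osm) act through receptors that share Il6st (gp130), IL-10 dampens macrophage activation, and Il12b encodes the p40 chain of IL-12 and IL-23. Unstimulated macrophages are known to keep most of these genes low, and the mRNAs of many of them are short-lived.

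The 3 mature miRNAs are shown since mimics of them define the miR-EV groups. They are mouse sequences from RefSeq on build GRCm38.p6, at chr11:87756867-87756887 (plus strand), chr6:30169711-30169732 (minus) and chrX:19146901-19146923 (minus). Capitals mark the seed, bases 2 to 8 from the 5′ end, which pairs with target mRNAs. The miR-222-3p mimic that the study lists lacks the last bases, cu, of the form shown here.
miR-142-5p: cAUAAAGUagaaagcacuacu
miR-183-5p: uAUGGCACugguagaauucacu
miR-222-3p: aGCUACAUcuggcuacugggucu
The 3 seeds differ from each other, so each mimic is a seed group of its own.

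The libraries held 16294611 to 22974853 estimated counts. Library number moved with the depth: the 4 libraries numbered 2 held 16294611 to 18927524 and the 8 others 18990222 to 22974853. Mitochondrial genes took 4.88% to 5.41% of the counts in number 2 and 3.48% to 4.62% in the others. Of 8 macrophage markers, Cd68 (321 to 416 TPM), Ptprc (201 to 290 TPM) and Spi1 (39.6 to 131 TPM) were high in every library, and Mertk was at 0 to 0.141 TPM. The summed level of the macrophage list was 796 to 856 TPM in number 2 and 917 to 1003 TPM in the others. TPM is a level per length of transcript, scaled to the same total in each library, so that genes can be compared. Of 8 endothelial markers, Cldn5 was at 0 in every library, Kdr and Emcn stayed under 0.063 TPM, and Egfl7 (10.1 to 26.2 TPM) and Pecam1 (2.36 to 4.14 TPM) were the highest. The summed endothelial list was 13.2 to 16.1 TPM in number 2 and 21.2 to 29.98 TPM in the others. The 4 fibroblast and the 4 lymphocyte markers summed to 1.01 TPM and 0.895 TPM at most.

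Tnf, Il18, Osm and Il1rn were the main transcripts of the set, and Il6, Il10 and Il12b were at or near the limit of detection. Tnf (chr17:35199381-35202007, minus strand), the ligand of the TNF receptors, had the highest mean level, 36.4 ± 4.97 TPM (SD, n = 12 libraries). Il18 (chr9:50554827-50581840), the interferon-γ-inducing cytokine, had 30.9 ± 10.7 TPM. These 2 neighbours in the order did not differ beyond their spread, with Tnf above Il18 in 7 of 12 libraries.

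Osm (chr11:4236420-4241026), a cytokine of the IL-6 family, followed with 13.8 ± 2.46 TPM, and it was below Il18 and above Il1rn in all 12 libraries. Il1rn (chr2:24336853-24351494) had 7.85 ± 4.42 TPM. Il1b (chr2:129364570-129371139, minus strand) had 2.42 ± 0.912 TPM and Il1a (chr2:129299610-129309972, minus strand), which lies beside it, had 1.03 ± 0.430 TPM. Il1rn was above Il1b in 10 of 12 libraries, the exceptions being number 2 libraries, and Il1b was above Il1a in all 12. Positions are those of build GRCm38.

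Il6, Il10 and Il12b had too few counts to be tested. Il6 (chr5:30013114-30019981) had under 10 estimated counts in 11 libraries and 10 in the miR-142-5p-EV library numbered 3. In number 3 it had 2 counts with ctrl-EVs, 6 with miR-183-5p-EVs, 5 with miR-222-3p-EVs and the 10 named above, and in the 8 other libraries 0 to 3. Il10 (chr1:131019845-131024974) had 0 to 7 counts. Il12b (chr11:44400063-44414033) had 1 count in each of 2 libraries and 0 in 10, where a count of 0 allows up to 3 counts, which is 0.131 to 0.184 CPM (counts scaled to the library's total). For these genes a difference between groups was not detectable at this depth. The other 6 genes had at least 10 counts in all 12 libraries, so the filter for testing (10 counts in at least 3 libraries) did not depend on a group in which they were high. They are 6 of 13923 genes tested.

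**Figure D1:**
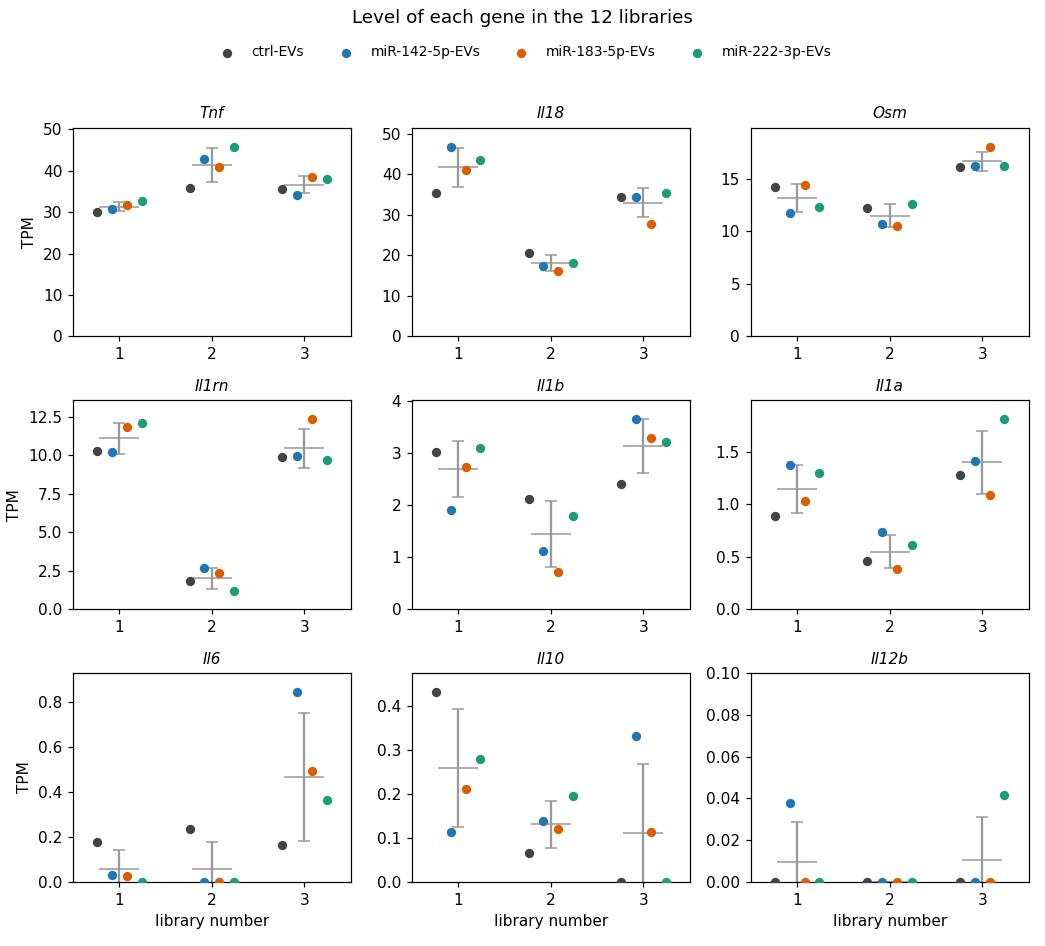
TPM (vertical axis, linear, scale differs between panels) of each of the 9 genes in the 12 libraries by library number (horizontal axis), with a colour for each EV group and grey bars for the mean and SD of the 4 libraries of a number. In number 2 Il1rn sits between 1.16 and 2.70 TPM and elsewhere between 9.67 and 12.3 TPM, while the colours mix within each number.

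The study asked whether the miRNAs delivered by endothelial EVs change the state of macrophages. None of the 6 tested cytokine genes was called in any comparison of miR-EVs with ctrl-EVs. Called means a Benjamini-Hochberg adjusted p under 0.05 in DESeq2 over all tested genes. Of the 6 genes, 0 had an unadjusted p under 0.05 in any of these comparisons, with DESeq2 or edgeR and with or without the library number as a block. Few genes were called at all: 0% of tested genes with miR-222-3p-EVs, 0% with miR-183-5p-EVs, 0.00718% with miR-142-5p-EVs, and 0% for the 9 miR-EV libraries together. With the number as a block these shares were 0.0359%, 0.417%, 0.0575% and 1.54%. An unadjusted p under 0.05 without the block was given to 100 genes, 138 genes, 73 genes and 232 genes. With the block in DESeq2 it was given to 910 genes, 1407 genes, 816 genes and 1893 genes. In each comparison edgeR called 0 genes, with or without the block. A block compares libraries within the same number. A test for any difference among the 4 groups called 0.00718% without and 0.0862% with the block, and 0 of the 6 genes.

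Values below are normalized counts, estimated counts scaled for library size and transcript length, in the order of numbers 1, 2 and 3. Tnf had 627, 807 and 764 with ctrl-EVs. In the miR-EV groups it had 688, 1091 and 717 (miR-222-3p), then 650, 1002 and 729 (miR-183-5p) and lastly 627, 997 and 652 (miR-142-5p). The 4 groups overlapped, and within each the library numbered 2 was the highest. The log2 fold change of all miR-EVs against ctrl-EVs was 0.12 ± 0.20 (SE), with a 95% interval of -0.28 to 0.52 (adjusted p = 0.9998). With the number as a block it was 0.09 ± 0.09, interval -0.09 to 0.27 (adjusted p = 0.660).

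Il1rn had 182, 35.3 and 179 with ctrl-EVs. In the miR-EV groups it had 215, 23.02 and 154 (miR-222-3p), then 206, 48.1 and 198 (miR-183-5p) and lastly 176, 53.6 and 161 (miR-142-5p). The groups overlapped over most of their range, and in each the library numbered 2 was far below the others. The pooled log2 fold change was 0.06 ± 0.61, interval -1.14 to 1.25. With the block the error fell to 0.18 (0.07, interval -0.29 to 0.42, adjusted p = 0.899), so that a rise of Il1rn above 1.34-fold or a fall below 0.819 of the ctrl-EV level lay outside the interval.

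Il18 had 329, 206 and 328 with ctrl-EVs. In the miR-EV groups it had 406, 192 and 297 (miR-222-3p), then 376, 175 and 232 (miR-183-5p) and lastly 423, 179 and 291 (miR-142-5p). Again the groups overlapped and the number 2 library was the lowest in each. The pooled log2 fold change was -0.01 ± 0.31, and -0.05 ± 0.13 with the block (interval -0.30 to 0.20, adjusted p = 0.895).

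Osm had 405, 374 and 473 with ctrl-EVs. In the miR-EV groups it had 354, 410 and 417 (miR-222-3p), then 405, 350 and 467 (miR-183-5p) and lastly 326, 341 and 422 (miR-142-5p). It was below its number's ctrl-EV library in 8 of 9 miR-EV libraries, which share 3 ctrl-EV libraries, and practically equal to it in 1 of these 8. The difference was small and was not called: -0.11 ± 0.14 for all miR-EVs, and -0.11 ± 0.10 with the block (interval -0.30 to 0.09, adjusted p = 0.632). With miR-142-5p-EVs it was -0.20 ± 0.18 without and -0.20 ± 0.13 with the block (adjusted p = 0.910).

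Il1b, the pro-inflammatory agonist, had 44.4, 33.5 and 36.2 with ctrl-EVs. In the miR-EV groups it had 45.9, 29.99 and 42.7 (miR-222-3p), then 39.4, 12.4 and 43.7 (miR-183-5p) and lastly 27.4, 18.4 and 49.1 (miR-142-5p). Every group overlapped the ctrl-EVs. Its log2 fold change with all miR-EVs was -0.14 ± 0.37 (adjusted p = 0.9998) and, with the block, -0.21 ± 0.29 (DESeq2 gave no adjusted p to this low-count gene). For all miR-EVs the 95% intervals, -0.87 to 0.59 and -0.78 to 0.36, leave room for a change of up to 1.83-fold and 1.72-fold downward. For single mimics they reached 1.89-fold downward with miR-222-3p-EVs, 2.35-fold with miR-183-5p-EVs and 2.38-fold with miR-142-5p-EVs. With the block these bounds were 1.69-fold, 2.21-fold and 2.20-fold. Without the length offset the log2 fold change of all miR-EVs, also not called, was -0.35 ± 0.34. By RT-qPCR in the same cell line, the study reported lower IL-1β with miRNA-enriched EVs. In a further experiment with the same miRNAs it reported no significant change of IL-1β.

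Il1a, the agonist that also acts inside the cell and at its surface, had 22.9, 12.8 and 33.9 with ctrl-EVs. In the miR-EV groups it had 33.6, 18.0 and 42.1 (miR-222-3p), then 26.1, 11.4 and 25.5 (miR-183-5p) and lastly 34.5, 21.3 and 33.3 (miR-142-5p). It was above the ctrl-EV library of its number in 6 of 9 miR-EV libraries. The pooled log2 fold change was 0.24 ± 0.40, and 0.25 ± 0.32 with the block, where again no adjusted p was given. Over the 3 miR-EV groups and the 6 genes the log2 fold changes ran from -0.26 to 0.43 without the block and from -0.36 to 0.44 with it.

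**Figure D2:**
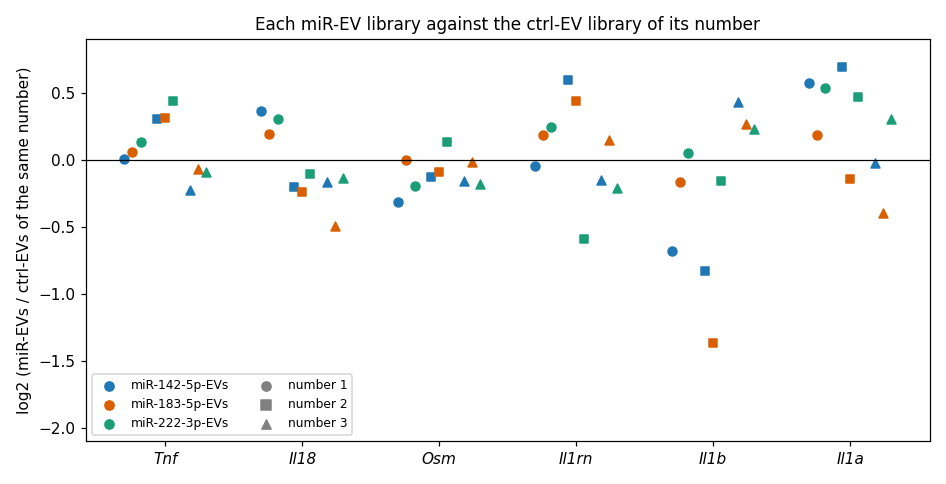
Log2 ratio of normalized counts (vertical axis, 1 added to each) of each miR-EV library to the ctrl-EV library sharing its number, for the 6 tested genes. Colours are the mimics and symbols the numbers. Osm is below 0 in 8 of 9 libraries, and Il1b runs from -1.36 to 0.43.

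Library number, in contrast, went with large differences in these genes. Comparing number 2 with numbers 1 and 3, with the EV group in the model, Il1rn, Il18, Il1a and Il1b were lower and Tnf was higher. Of the 6 tested genes 4 were called lower and 1 higher, where 32.1% of all 13923 tested genes were called lower and 32% higher. The difference of number 2 thus ran through most tested genes, the cytokines among them.

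Il1rn had the largest difference of the set. It had 23.02 to 53.6 normalized counts in the 4 libraries numbered 2 and 154 to 215 in the 8 others, with no overlap. The log2 fold change was -2.24 ± 0.20 (adjusted p = 1.81e-26), a level 4.72-fold lower in number 2 with a 95% interval of 3.57 to 6.23. Of all tested genes 166, or 1.19%, had a lower value. Within the EV groups the mean of numbers 1 and 3 was 5.11 times number 2 with ctrl-EVs, 8.01 times with miR-222-3p-EVs, 3.14 times with miR-142-5p-EVs and 4.21 times with miR-183-5p-EVs. Numbers 1 and 3 did not differ by this test (0.18 ± 0.20, interval -0.21 to 0.56, adjusted p = 0.580). Without the length offset that difference was 0.47 and was called.

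Il18 had 175 to 206 normalized counts in number 2 and 232 to 423 in the others. It fell by 0.82 ± 0.13 on the log2 scale (adjusted p = 6.72e-10), 1.76-fold, and was lowest in number 2 in all 4 EV groups. Il18 was also the only member that differed between numbers 1 and 3, by 0.43 ± 0.14 (adjusted p = 0.0130), where 12.9% of tested genes were higher in number 1 and 10.5% lower. That call was lost when any 1 of 6 libraries was left out, those numbered 1 or 3 of the 3 miR-EV groups (adjusted p = 0.0663 to 0.134).

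Il1a fell by 1.0 ± 0.33 (adjusted p = 0.00481), from 22.9 to 42.1 normalized counts in the other libraries to 11.4 to 21.3 in number 2. Il1b fell by 0.83 ± 0.32 (adjusted p = 0.0151), with 12.4 to 33.5 in number 2 and 27.4 to 49.1 in the others, which overlap. The call of Il1b was lost without either of 2 libraries: without the miR-142-5p-EV library numbered 2 the log2 fold change was -0.78 (adjusted p = 0.0638), and without the miR-183-5p-EV library numbered 2 the log2 fold change was -0.59 (adjusted p = 0.145).

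Tnf went the other way. It had 807 to 1091 normalized counts in number 2 and 627 to 764 in the others, with no overlap, and rose by 0.51 ± 0.09 (adjusted p = 5.74e-08), 1.43-fold with an interval of 1.26 to 1.61. On the TPM scale, which does not adjust for the composition of the libraries, number 2 had 35.9 to 45.9 TPM and the others 30.1 to 38.6 TPM, and these overlap. Osm was between: -0.14 ± 0.10 (adjusted p = 0.218, interval -0.34 to 0.06), with 341 to 410 in number 2 and 326 to 473 in the others. Between numbers 1 and 3 Osm differed by -0.26 ± 0.11, which was not called (adjusted p = 0.0823), and for Tnf, Il1a and Il1b the adjusted p was 0.349 to 0.804.

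**Figure D3:**
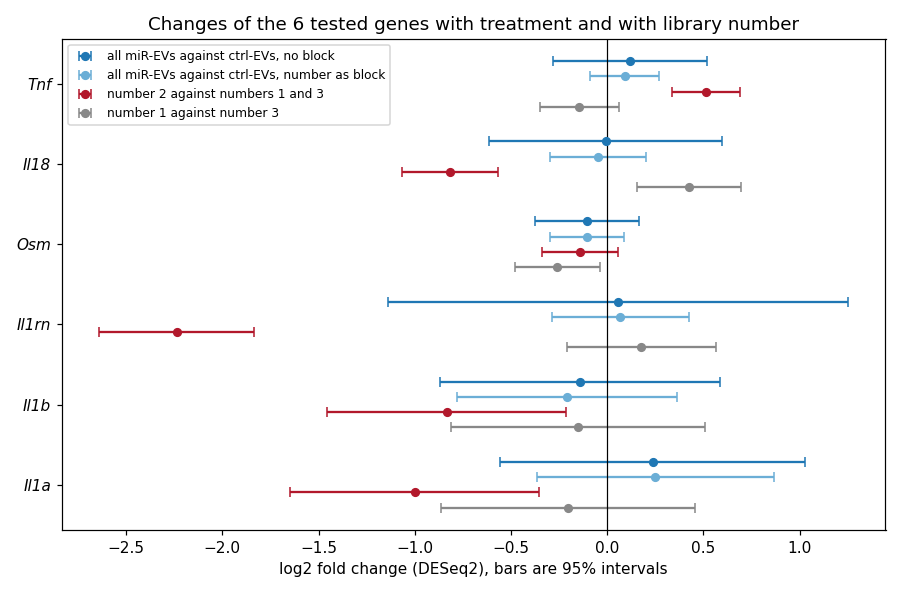
Log2 fold change (horizontal axis) of the 6 tested genes in DESeq2 with 95% intervals as bars: all miR-EVs against ctrl-EVs without and with the number as a block, number 2 against numbers 1 and 3, and number 1 against number 3. The treatment values all span 0, and 5 of the 6 number 2 values do not.

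Depth, the mitochondrial share and the marker lists above moved with number 2 as well, and their part in these differences was not tested. The macrophage genes Csf1r (the CSF-1 receptor) and Spi1 (the lineage factor PU.1) fell by 1.27 ± 0.13 and 0.94 ± 0.11, while Cd68 rose by 0.41 ± 0.08 and Adgre1 (F4/80) by 0.69 ± 0.14. The other tested macrophage markers, Itgam (0.07 ± 0.07), Lyz2 (-0.17 ± 0.09) and Ptprc (0.06 ± 0.07), were not called. Of 4 tested endothelial markers Egfl7 fell by 0.72 ± 0.16 and Tek, at 0 to 0.470 TPM, was also lower, while the other 2 were not called. In bulk RNA, fewer cells that express a gene and less RNA per cell cannot be told apart.

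The antagonist and the agonists of the IL-1 receptor changed together, but not in proportion. The ratio of Il1rn to Il1a plus Il1b in TPM was 2.62 to 3.15 in number 1 and 1.92 to 2.81 in number 3. In number 2 it was 0.714 with ctrl-EVs, 0.481 with miR-222-3p-EVs, 1.45 with miR-142-5p-EVs and 2.12 with miR-183-5p-EVs. The library with the highest of these values overlapped number 3, and in number 2 the ratio rests on 21 to 44 counts of Il1a and Il1b. By EV group the mean ratio (± SD, n = 3) was 2.004 ± 1.12 with ctrl-EVs, 1.72 ± 1.15 with miR-222-3p-EVs, 2.17 ± 0.842 with miR-142-5p-EVs and 2.70 ± 0.528 with miR-183-5p-EVs. The groups overlapped. Tnf was 2.67 to 3.94 times Il1rn in TPM in numbers 1 and 3 and 15.9 to 39.7 times in number 2.

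Il1rn has 2 sets of transcript starts, and counts from both were low in number 2. Transcripts from the upstream starts are known to encode the antagonist that stays in the cell, and those from the downstream starts the secreted form. Il1rn-201, which starts at chr2:24345310, took 72.6% of the counts, Il1rn-202 14.4% and the upstream Il1rn-204 10.0%. Summed over the 4 libraries, the downstream starts had 825 counts in number 1, 117 in number 2 and 609 in number 3, and the upstream starts had 108, 17 and 72. The downstream share was thus 88.4%, 87.4% and 89.5%. It ran from 84.7% to 94.6% in the 8 libraries of numbers 1 and 3 and from 74.3% to 100% in number 2, where a library held 25.3 to 39.8 counts. The division of reads between the transcripts is Salmon's estimate.

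**Figure D4:**
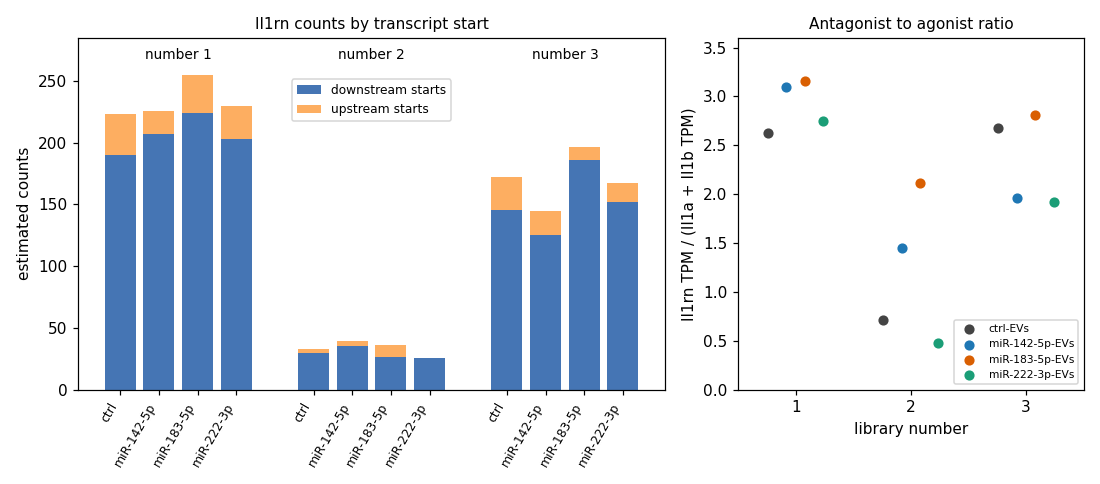
Left, estimated counts of Il1rn (vertical axis) in the 12 libraries, split by downstream and upstream transcript starts, in the order of library number and EV group. Right, the ratio of Il1rn to Il1a plus Il1b in TPM by library number, coloured by EV group. Counts are 25.3 to 39.8 in number 2 and 145 to 255 elsewhere, and the ratio in number 2 runs from 0.481 to 2.12.

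The 3′ UTRs of the cytokine mRNAs are known for AU-rich elements, repeats of the pentamer ATTTA through which proteins such as tristetraprolin shorten the life of an mRNA. These were counted in the coding transcript with the highest TPM of each gene, on the sense strand and with overlaps allowed. Of 12512 tested genes with such a 3′ UTR 64.8% held the pentamer. Tnf had 8, a number reached by 9.45% of them, Osm, Il10 and Il12b had 6 each, Il1b and Il6 had 4, Il1a had 3 and Il18 had 1. Il1rn had 0 in 1306 bases. The longer element TTATTTATT occurred 5 times in Tnf and in 0 of the other 8 genes, and 7.42% of tested genes held it. The 30 bases with the most pentamers are shown for Tnf (chr17:35199679-35199708), Il1b (chr2:129364808-129364837) and Il12b (chr11:44413473-44413502, plus strand), as RNA-sense DNA with the pentamers in capitals, to show how dense they are in these genes.
Tnf: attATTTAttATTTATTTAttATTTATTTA
Il1b: caaccacttacctATTTATTTAtgtATTTA
Il12b: ATTTAagtaATTTAtgtATTTAttaATTTA
Of the 5 genes that differed in number 2, Tnf, which rose, had 8 pentamers, and those that fell had 0 to 4. Per kilobase of 3′ UTR Tnf had 10.5, Il1b 8.71, Il18 8.13, Il1a 2.72 and Il1rn 0. The value of Il18 rests on 1 pentamer in 123 bases, and that of Tnf on 8 in 764 bases. Osm, which was not called, had 6 pentamers, or 5.90 per kilobase. A link between pentamers and the direction of change was not tested.

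A match to a seed was found in 2 of the 9 genes, for miR-142-5p. The 7 letters that pair with bases 2 to 8 of miR-142-5p, ACTTTAT, occurred once each in the 3′ UTRs of Osm (chr11:4240581-4240610 for the stretch shown) and Il10 (chr1:131024526-131024555), both on the plus strand, and in 14.0% of tested genes. Capitals mark the match.
Osm: gtgagcaagacACTTTATttatccgaatgt
Il10: ccattggggacACTTTATagtatttaaagg
The letters for miR-183-5p (GTGCCAT, in 8.94% of tested genes) and miR-222-3p (ATGTAGC, in 9.45%) occurred in 0 of the 9. With miR-142-5p-EVs Osm had the values given above, and with the other 2 mimics, for which it holds no match, its log2 fold changes were -0.09 ± 0.18 (miR-222-3p-EVs) and -0.03 ± 0.18 (miR-183-5p-EVs). Il10 had 7, 1 and 0 counts with ctrl-EVs and 2, 2 and 5 where miR-142-5p was delivered. A match of letters is a description and not a site of regulation.

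RefSeq promoter windows, 250 bases before to 50 after a gene's start on GRCm38.p6, were at hand for 7 of the 9 genes. The letters TATAAA, searched on both strands, were in a window of 5 of them and in 13.6% of all 32851 windows. The first is a count of genes and the share is of single windows, and Il1rn had more windows than the other genes. In 3 genes, Tnf, Il1a and Il1b, the match lay on the gene's strand and began 29, 32 and 31 bases before the start, the usual place of a TATA box. These stretches are shown with the match in capitals, at chr17:35202019-35202048, chr2:129309987-129310016 and chr2:129371153-129371182, all on the minus strand.
Tnf: ttccccaagggcTATAAAggcggccgtctg
Il1a: cttgaggaagacTATAAAaaggcagagaag
Il1b: gctttttaggacTATAAAacaagggaggga
In Il18 and Il1rn the match was on the opposite strand, 175 bases before and 14 bases after a start. Of these genes Tnf rose in number 2 and the other 4 fell.

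The genes around the cytokines, in 7 lists of 62 genes of which 56 were tested, mostly did not pass the test with treatment. Without the block 0 of 56 were called in any of the 4 comparisons with ctrl-EVs, and 0 to 2 had an unadjusted p under 0.05. With the block in DESeq2 7, 8, 9 and 10 of 56 had one (miR-222-3p-EVs, miR-183-5p-EVs, miR-142-5p-EVs and all miR-EVs). Among all 13923 tested genes 910, 1407, 816 and 1893 did, in the same order. With the block 2 of 56 were called for all miR-EVs together, where 1.54% of all tested genes were. Casp4 (caspase-11), which senses intracellular lipopolysaccharide, fell by 0.43 ± 0.10 (adjusted p = 0.00469), and Rc3h2 (Roquin-2), which degrades cytokine mRNAs, rose by 0.34 ± 0.10 (adjusted p = 0.04996). In edgeR with the block 0 of 56 were called, the smallest adjusted p being 0.139.

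Between number 2 and the others 25 of 56 list genes fell and 15 rose, 44.6% and 26.8%, beside 32.1% and 32% of all tested genes. Of the receptors and decoys of IL-1 and IL-18, 3 of 7 fell and 1 rose. Il1r1, the signalling IL-1 receptor, fell by 1.95 ± 0.23 (adjusted p = 1.30e-16), from 4.10 to 6.67 TPM in the others to 0.757 to 2.46 TPM in number 2. The accessory chain Il1rap fell by 0.54 ± 0.14, and the inhibitory receptor Sigirr by 0.58 ± 0.11. The soluble IL-18 inhibitor Il18bp rose by 0.97 ± 0.23. Il18rap, a chain of the IL-18 receptor and the most abundant of the list at 50.6 ± 12.6 TPM, had -0.11 ± 0.08 (adjusted p = 0.179).

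Of the machinery that releases IL-1β and IL-18, 7 of 11 genes fell and 2 rose. Casp4 fell by 1.72 ± 0.10 and Nlrp3, an inflammasome sensor, by 1.46 ± 0.15. Casp1, the enzyme that cuts both cytokines, fell by 0.56 ± 0.11, from 39.3 to 59.8 TPM in the others to 29.9 to 33.99 TPM. Aim2, the DNA sensor and most abundant of the list at 494 TPM, rose by 0.92 ± 0.08. Pycard (ASC), the adaptor between sensor and caspase-1, was the other gene called higher, by 1.33 ± 0.46 (adjusted p = 0.00752), at very low levels: 0.442 to 0.690 TPM in number 2 and 0.098 to 0.496 TPM in the others. RAW 264.7 cells are known to lack its protein.

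Downstream of the IL-1 receptor, 5 of 10 genes fell and 1 rose. The adaptor Myd88 fell by 1.58 ± 0.09 (adjusted p = 4.18e-65), from 52.0 to 59.9 TPM in the other libraries to 12.2 to 18.5 TPM in number 2, and the inhibitory kinase Irak3 by 1.22 ± 0.13. Irak2, a kinase of the same complex and the most abundant of the list at 92.5 TPM, rose by 0.22 ± 0.07.

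Among TNF receptors and the genes of TNF release, 5 of 8 tested genes fell and 2 rose. The main receptor Tnfrsf1a fell by 0.99 ± 0.08 and its partner kinase Ripk1 by 1.46 ± 0.12, while the second receptor, Tnfrsf1b, had -0.03 ± 0.08 (adjusted p = 0.786). Adam17, the protease that sheds TNF from the membrane and the most abundant of this list at 82.5 TPM, fell by 0.75 ± 0.06. Its partner Rhbdf1 rose by 1.03 ± 0.11, and Rhbdf2 by 0.27 ± 0.09. Tnf mRNA was thus higher in the libraries in which the mRNAs of its main receptor and its protease were lower.

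Of the IL-6 and oncostatin M family, 1 of 6 tested genes fell and 2 rose. The IL-6 receptor Il6ra fell by 1.72 ± 0.11, from 19.7 to 28.0 TPM in the others to 4.90 to 7.28 TPM in number 2. The shared chain Il6st, at 23.9 TPM the most abundant, rose by 0.28 ± 0.11, and the ligand Lif by 1.19 ± 0.15. The oncostatin M receptor Osmr was at 0 to 0.203 TPM. Of the partners and receptors of IL-10 and IL-12, 4 of 6 tested genes fell and 2 rose. Il23a, the partner of Il12b in IL-23, fell by 1.89 ± 0.22, Il10rb, at 48.9 TPM the most abundant, by 1.13 ± 0.08, and Il10ra rose by 0.51 ± 0.10. Il12a was at 0 in all 12 libraries.

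Of 8 genes whose proteins set the life of cytokine mRNAs, 5 rose in number 2 and 0 fell at the mRNA level. Of all tested genes 32% were called higher and 32.1% lower. Zfp36 (tristetraprolin) rose by 1.34 ± 0.11, its relative Zfp36l1 by 1.35 ± 0.09, Rc3h1 (Roquin-1) by 1.39 ± 0.12, Rc3h2 by 0.56 ± 0.10 and Elavl1 (HuR), which stabilises AU-rich mRNAs, by 0.42 ± 0.08. Hnrnpd (AUF1), the most abundant at 223 TPM, had -0.0044 ± 0.07. The median log2 fold change of the list was 0.49, beside 0.01 over all tested genes.

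**Figure D5:**
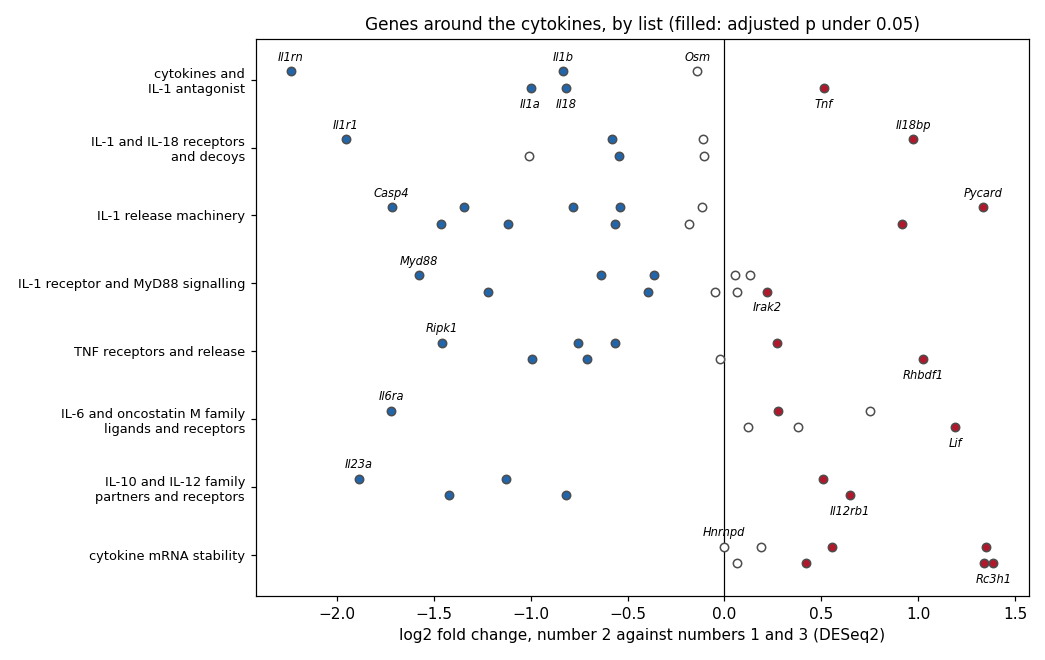
Log2 fold change of number 2 against numbers 1 and 3 (horizontal axis) for the tested cytokine genes and the tested genes of 7 lists, each point a gene. Filled points passed an adjusted p under 0.05, blue for lower and red for higher. Of 11 release genes 7 are blue, and of 8 mRNA stability genes 5 are red and 0 blue.

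Numbers 1 and 3 differed less. Of the 56 list genes 7 were higher in number 1 and 10 lower, 12.5% and 17.9%, beside 12.9% and 10.5% of all tested genes. The largest of these were Il18rap (0.69 ± 0.09), Zfp36l1 (0.67 ± 0.11) and Lif (0.55 ± 0.18) upward, and Il12rb2 (-1.32 ± 0.40), Casp4 (-0.92 ± 0.12) and Ebi3 (-0.90 ± 0.15) downward.

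The genes whose log2 normalized counts ran most like those of a cytokine over the 12 libraries were sought among 10857 genes whose mean reached 50. Such a correlation is a description, since all genes share the 12 libraries and their 3 numbers. Il1rn ran most like Med20 (r = 0.979), Taco1 (0.978) and Serpinb1c (0.977), each lower in number 2. Il18 ran most like Raet1e (0.980), Tpm3-rs7 and Exosc9 (0.975 each), of which Raet1e and Tpm3-rs7 share reads with near-identical copies and are uncertain. Among the genes nearest to Tnf were Ankrd13c and Hist1h2bc (0.966 each), which were higher in number 2. Osm, which differed least, had the lowest values: Atp6ap2 (0.911), Commd7 (0.903) and Rufy3 (0.898). Between the members, r was 0.83 for Il1rn and Il18, -0.87 for Il1rn and Tnf, -0.87 for Il18 and Tnf, and -0.16 to 0.29 for Osm with the other 3.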

How the data were processed

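The authors prepared stranded mRNA libraries, sequenced read pairs and assigned them to Ensembl mouse transcripts with Salmon. The deposited files give, per transcript, expected counts (not normalized), TPM values and lengths. The labels name a human build and the file names a mouse transcript set, and the release in the methods is not that of the file names. Filters and use of the strand are not given in the sources used here.

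Transcripts were matched by identifier to GENCODE vM21 (GRCm38), and 0.570% to 0.642% of estimated counts had no match. Counts were summed by gene and rounded, with the mean transcript length as an offset. Genes with at least 10 counts in 3 libraries entered DESeq2 1.42.0 under R 4.3.3 (two-sided Wald tests, and a likelihood ratio test across the 4 groups), after a test on simulated data. The methods name DESeq2 but give no design formula. EV groups entered without a block, and in alternatives with library number as a block and with edgeR 4.0.16. Number comparisons kept the EV group in the model. The numbers come from the titles. Same-numbered libraries deviated from their group means together (r = 0.409 to 0.798, mean 0.608, over 18 pairs), so the numbers were taken to pair the samples. Depth was 16294611 to 22974853 counts, and floors of 3 counts cover counting error only.

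The 9 genes and the lists were chosen with earlier results of these data known. Named list genes were the most abundant of each list and the 3 largest rises and falls called per comparison. Receptors, sensors and markers beyond these were named after their values were seen. Of the genes that ran most like a cytokine, 1 is not reported here.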

Additional observations from a re-analysis of the deposited data

Results flagged for a closer look

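In 3 genes the 3 miR-EV libraries of a number all moved one way from the ctrl-EV library of that number, and those of another number all moved the other way. Tnf was above its ctrl-EV library in number 2 (log2 ratios 0.30, 0.31 and 0.43) and in number 1, where the smallest ratio was 0.0012, and below it in number 3 (-0.23, -0.07 and -0.09). The mean log2 ratios differed by 0.478 between numbers 2 and 3 and by 0.191 between numbers 1 and 3. Il1b was above in number 3 (0.43, 0.26 and 0.23) and below in number 2 (-0.83, -1.36 and -0.16), a difference of 1.09. Il18 was above in number 1 (0.36, 0.19 and 0.30) and below in numbers 2 and 3, with differences of 0.470 and 0.554. These differences were not tested, since each number has 1 ctrl-EV library, which the 3 ratios share. Of 24 checks for a library far from the others of its number or of the miR-EVs, 0 found one, where chance gives about 1 in 20.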

How the results depend on the processing

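No alternative called a cytokine gene in a comparison with ctrl-EVs. Il1rn, Il18, Il1a and Tnf kept their number 2 call in all alternatives run, the fits without any 1 library included. With 1 library left out their log2 fold changes were -2.45 to -2.01, -0.88 to -0.77, -1.12 to -0.95 and 0.47 to 0.61. Genes called over the whole table, 1 with miR-142-5p-EVs, 0 with each of the other mimics and all miR-EVs, and 1 for any difference, became 8, 58 (miR-183-5p-EVs), 5 (miR-222-3p-EVs), 214 and 12 with the replicate block, which changed no other call. In the same order they became 2, 4, 3, 28 and 5 without number 2, and 0 for any difference and for miR-142-5p-EVs in edgeR with or without the block, or where the latter were fitted with ctrl-EVs alone. Without any 1 library the ranges were 0 to 1 (miR-183-5p-EVs, and also miR-142-5p-EVs), 0 to 3 (all miR-EVs), 0 to 2 (any difference) and 1898 to 3763 (number 1 against 3, beside 3258). For number 1 against 3 the cytokine genes called were 3 without the length offset (Il1rn 0.47, Osm -0.27) and 0 to 1 without any 1 library. The cause was not tested.

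The sign of treatment values near 0 turned as follows, on the log2 scale. With the block Il1rn with miR-142-5p-EVs was 0.077 (0.061 in edgeR, where Il18 was -0.0075). Without number 2, Tnf was -0.0084 with miR-183-5p-EVs, -0.12 with miR-142-5p-EVs and -0.035 with all miR-EVs, Il1b was 0.047 with miR-183-5p-EVs and 0.035 with all miR-EVs, Il18 was 0.044 with all miR-EVs and Il1rn 0.035 with miR-222-3p-EVs. Without the length offset Il1b was -0.15 with miR-222-3p-EVs, and Il1rn was -0.063 and Il18 0.026 with all miR-EVs. Il1b kept its sign but was over 1.5 times as large there with miR-183-5p-EVs (-0.47 beside -0.25), miR-142-5p-EVs (-0.44 beside -0.26) and all miR-EVs (-0.35 beside -0.14), none of them called.

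Without any 1 library the ranges were as follows. With miR-142-5p-EVs, Il18 -0.29 to 0.31, Il1rn -0.47 to 0.35 and Tnf -0.19 to 0.17. With miR-183-5p-EVs, Il18 -0.50 to 0.081, Il1a -0.42 to 0.24, Il1b -0.53 to 0.13, Il1rn -0.25 to 0.62, Osm -0.14 to 0.067 and Tnf -0.085 to 0.24. With miR-222-3p-EVs, Il18 -0.23 to 0.29, Il1b -0.059 to 0.22, Il1rn -0.57 to 0.48, Osm -0.16 to 0.012 and Tnf -0.060 to 0.30. With all miR-EVs, Il18 -0.20 to 0.098, Il1a -0.046 to 0.62 and Il1rn -0.39 to 0.36. For number 1 against 3, Il1b -0.35 to 0.049 and Il1rn -0.0010 to 0.27. The order of the 9 levels was the same in counts per kilobase as in TPM.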
